A study of Mus musculus with 30 samples.

Results

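The genes described are Bmp8b and 9 others of bone morphogenetic protein (BMP) signalling, 10 of the 21652 genes measured. They are the ligands Bmp8b, Bmp2, Bmp3, Bmp4, Bmp6 and Bmp7, the type I receptors Bmpr1a and Acvr1c, the target Id1 and the inhibitory SMAD Smad6. They were selected by gene symbol with results from these same libraries known, so their levels, fold changes and calls are given as a description, without p-values. Bulk poly(A) RNA was sequenced from 2 fat depots, the inguinal white depot (iWAT) and brown fat (BAT), of C57BL/6J mice, male and 7 to 8 weeks old. Each tissue was taken from mice labelled as kept at 22 °C, exposed to 6 °C for 6 h or exposed to 6 °C for 24 h, which gives 6 groups of 5 libraries. All groups share the strain, sex and age, no genotype or drug is named, while the room in the housing notes was at 24 ± 2 °C, a range that includes the labelled 22 °C at its lower end. Whether replicates come from different mice is not stated, so p-values measure the spread between these samples.

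BMPs are secreted dimers of the TGF-beta superfamily. They bind pairs of type I and type II receptor kinases, which phosphorylate SMAD1, SMAD5 and SMAD9; these join SMAD4 and switch on targets such as the Id genes and the feedback inhibitors Smad6 and Smad7. Activins, nodal and some growth differentiation factors use the parallel SMAD2 and SMAD3 branch, to which the receptor ALK7, encoded by Acvr1c, belongs. In mouse adipose tissue, Bmp7 is known to promote brown adipocyte differentiation, Bmp4 to commit precursors to the fat lineage, and Bmp8b, made by mature brown adipocytes, to raise the response of the tissue to adrenergic stimulation.

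The libraries held 25.3 to 41.0 M assigned counts (M, mega), and after scaling by TMM factors 3 counts correspond to 0.0563 to 0.139 CPM, that is, counts per M of the scaled library size. Markers of the labelled tissue were present in every group: 6 adipocyte genes summed to between 15980 and 32397 CPM in all 30 libraries. The sum of 6 brown adipocyte genes was 12874 to 16256 CPM in BAT at 22 °C against 103 to 1133 in iWAT at 22 °C. Skeletal muscle genes (10 markers) stood apart in 1 iWAT library, replicate 2 at 22 °C, with 3328 CPM against 2.91 to 7.84 in the other 4. In BAT they summed to 239 to 8111 CPM at 22 °C, 8.97 to 1440 after 6 h and 2.18 to 4136 after 24 h. Epithelial and mesothelial markers summed to at most 0.454 and 0.754 CPM. In bulk tissue, fewer cells of a type and less RNA per cell cannot be told apart.

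Start regions are shown for the member that rose most in cold BAT and for the feedback inhibitor Smad6. They run from 250 bases before to 50 bases after the annotated start and come from RefSeq on GRCm38.p6, an older build than the GRCm39 of the deposited values. Of the 10 genes, 6 had an entry (Bmp8b, Bmp4, Bmp6, Bmpr1a, Acvr1c and Smad6). The first sequence is on the plus strand at chr4:123104911-123105210 and the second on the minus strand at chr9:64022010-64022309, each printed 5′ to 3′ along its gene.
Bmp8b: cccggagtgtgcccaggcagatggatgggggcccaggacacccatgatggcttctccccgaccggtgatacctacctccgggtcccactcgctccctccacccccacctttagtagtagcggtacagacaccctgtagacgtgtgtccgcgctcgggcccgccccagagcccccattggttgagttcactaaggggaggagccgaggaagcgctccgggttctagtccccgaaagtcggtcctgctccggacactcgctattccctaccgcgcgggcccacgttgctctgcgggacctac
Smad6: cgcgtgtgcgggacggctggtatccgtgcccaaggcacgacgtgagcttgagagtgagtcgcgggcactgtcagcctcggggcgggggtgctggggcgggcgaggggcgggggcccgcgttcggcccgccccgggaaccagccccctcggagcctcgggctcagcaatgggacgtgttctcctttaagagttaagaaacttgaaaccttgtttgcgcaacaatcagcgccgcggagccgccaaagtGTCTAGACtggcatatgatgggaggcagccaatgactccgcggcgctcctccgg
Capitals mark GTCTAGAC, the palindromic SMAD box, which begins 4 bases before the Smad6 start. Its reverse complement is the same, and 70 of 32851 mouse start regions in the table (0.213%) hold it. Other motifs searched on both strands were the cyclic AMP response element TGACGTCA (in 1.79% of the start regions), its shorter form TGACG (20.8%), which every full element contains, and the GC-rich SMAD motif GGCGCC (11.9%). None of these letters lies in the Bmp8b window, and GGCGCC lies in that of Bmpr1a, 198 bases before the start. A match describes letters and not a bound site.

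Bmp8b, the brown-fat ligand, had its highest level in BAT after 24 h of cold and its lowest in iWAT at 22 °C. In BAT at 22 °C the 5 libraries read 0.407, 0.316, 0.788, 0.322 and 0.748 CPM. After 6 h they read 1.48, 3.24, 5.75, 3.25 and 6.72 CPM. After 24 h they read 22.0, 13.4, 10.5, 19.3 and 17.6 CPM. No library of one of these groups reached into another: the lowest after 6 h lay above the highest at 22 °C, and the lowest after 24 h above the highest after 6 h. The spread was widest, relative to the mean, after 6 h, where replicate 1 lay well under the other 4.

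The log2 fold change of Bmp8b in BAT was 2.93 ± 0.39 (± approximate SE, n = 5 against 5) at 6 h and 4.93 ± 0.40 at 24 h, and 24 h exceeded 6 h by 2.00 ± 0.33. All 3 changes were called, that is, had an adjusted p under 0.05 in edgeR's quasi-likelihood test with Benjamini-Hochberg adjustment over all genes. In summed counts, 2342 at 24 h stood against 72 at 22 °C, a ratio per library size of 31.4 with an exact 95% interval of 24.8 to 40.2 that covers counting error only. Leaving out any 1 library gave 4.80 to 5.14 at 24 h and 2.66 to 3.14 at 6 h. Of all 13090 genes tested in BAT, 12.5% were called higher and 10.2% lower at 6 h, 12.8% and 10.4% at 24 h, and 6.6% and 6.45% at 24 h against 6 h. The sum of the brown adipocyte genes in BAT was 19493 to 26848 CPM at 6 h and 19068 to 22290 at 24 h, above every 22 °C library, and 4 of the 6 genes were called higher at each time. Their part in the result was not tested.

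In iWAT Bmp8b was close to the limit of counting until 24 h. The 5 libraries at 22 °C held 0, 0, 1, 1 and 0 counts, and each library after 6 h held 1 count. After 24 h they held 8, 6, 15, 8 and 32 counts, or 0.230, 0.140, 0.337, 0.182 and 0.862 CPM. Every library at 24 h lay above every library at 22 °C and at 6 h, and replicate 5 lay far above the other 4. Bmp8b did not pass the filter on low counts in iWAT and was not tested there. In summed counts, 69 at 24 h against 2 at 22 °C gave a ratio of 38.2, with an exact 95% interval of 10.2 to 322, and 5 against 2 at 6 h gave 3.31 (0.542 to 34.8), which includes no change. Replicate 5 held 32 of the 69 counts; without it, an alternative chosen after seeing the data, 37 against 2 gave 25.1 (6.47 to 215). These intervals cover counting error only. The brown adipocyte genes summed to 714 to 5903 CPM in iWAT at 6 h (4 of 6 called higher) and 3051 to 5126 at 24 h (5 of 6), and their part in the result was not tested.

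Across the 6 groups the order of Bmp8b was iWAT at 22 °C, iWAT 6 h, iWAT 24 h, BAT at 22 °C, BAT 6 h and BAT 24 h. The libraries of the first 2 groups overlapped, as did those of iWAT at 24 h (0.140 to 0.862 CPM) and BAT at 22 °C (0.316 to 0.788 CPM), and no other neighbours did. BAT held 61.1 times as much as iWAT at 22 °C (interval 16.3 to 514, from 72 against 2 counts), 146 times at 6 h (62.3 to 451) and 50.1 times at 24 h (39.5 to 64.6), or 76.4 times (55.3 to 109) without replicate 5 of iWAT at 24 h. The intervals of these ratios cover counting error only and leave out the spread between libraries. The cold response on the log2 scale was not shown to differ between depots: BAT minus iWAT was 1.56 ± 2.05 at 6 h and 0.17 ± 0.74 at 24 h, and neither was called. With limma on log2(FPKM + 1), which adds a pseudocount of 1 before the log, the same differences were 0.72 and 1.89. Both were called, as they were with a pseudocount of 0.1. Bmp8b in iWAT averaged only 0.0031 FPKM at 22 °C and 0.104 at 24 h, so these pseudocounts shrink its iWAT change. The answer depends on the scale, and those calls cannot decide whether the fold response differs.

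**Figure D1:**
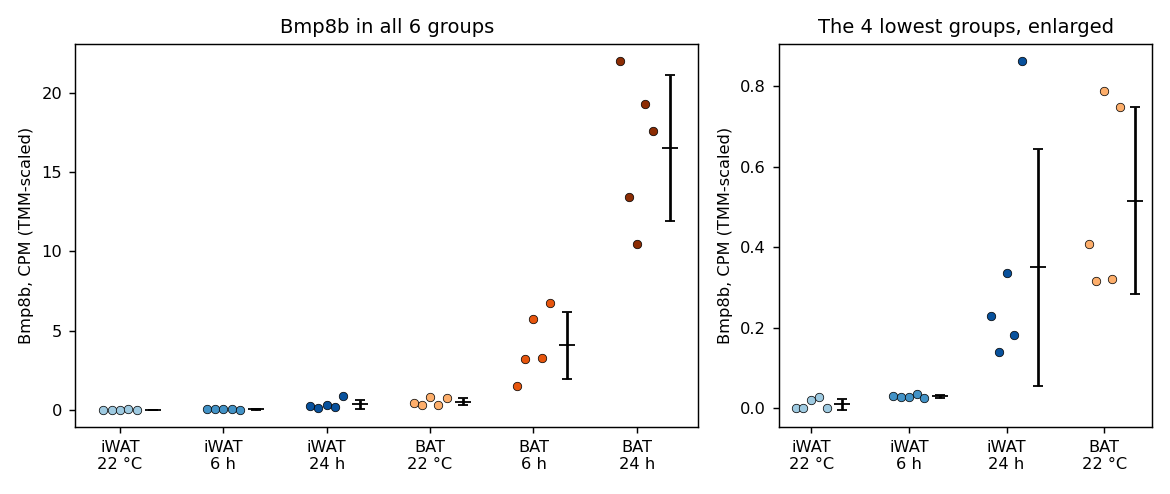
Bmp8b in CPM (vertical axis, linear) in each of the 30 libraries of 6 groups (horizontal axis), with bars for mean ± SD (n = 5), and the 4 lowest groups on an enlarged scale at the right. BAT libraries lie between 0.316 and 0.788 CPM at 22 °C and between 10.5 and 22.0 after 24 h of cold, and iWAT libraries stay at or below 0.862.

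Reads of Bmp8b could be mixed with those of other genes in small stretches. In the GENCODE M21 annotation (GRCm38), 133 of its 3880 exon bases (3.43%) overlap Ppie, a peptidyl-prolyl isomerase gene on the opposite strand, and 339 (8.74%) overlap the gene model Gm17244. Whether counting used the strand is not stated, so such reads cannot be told apart. Ppie itself had a log2 fold change of 0.08 ± 0.14 at 6 h and 0.30 ± 0.13 at 24 h in BAT, neither called (adjusted p = 0.721 and 0.129, edgeR). Of the 50-base words of Bmp8b transcripts, 5.5% also occur in its paralog Bmp8a, which had 0 to 13 counts per library and was not tested in any fit.

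Among the 11604 genes with a mean of at least 1 CPM in BAT, those whose log2 CPM followed Bmp8b most closely over the 15 BAT libraries were Hmox2 (Pearson r = 0.964), Hspa5 (0.964), Idua (0.964), Arhgef37 (0.963) and Npr3 (0.957). Hspa5, the main chaperone of the endoplasmic reticulum, averaged 413 ± 16.5, 527 ± 16.9 and 593 ± 17.5 CPM (SD, n = 5) at 22 °C, 6 h and 24 h. Npr3, the natriuretic peptide clearance receptor, averaged 82.8 ± 18.5, 290 ± 85.3 and 482 ± 134 CPM. Arhgef37 averaged 3.35 ± 0.914, 17.5 ± 8.55 and 27.5 ± 3.76 CPM. In iWAT 3 of 15 libraries held no Bmp8b count, and the others at 22 °C and 6 h held 1 each. The closest genes there were Acot2 (0.905), Chrna2 (0.891), Mthfd2 (0.889), Ppp3cb (0.886) and Zfp930 (0.884). The points share groups, temperature and library preparation, and genes were ranked by r, so the values only describe likeness.

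In fitted log2 values, the other 5 ligands differed more between the depots at 22 °C than with cold, beyond the SE for Bmp2, Bmp3 and Bmp7. The sizes overlapped within SE for Bmp4 (-0.87 ± 0.36 between depots and -0.77 ± 0.31 in iWAT at 6 h). They also did so for Bmp6 (0.81 ± 0.17 and, in iWAT at 24 h, -0.54 ± 0.19). BAT was lower than iWAT in Bmp3, Bmp7, Bmp2 and Bmp4 and higher in Bmp6, and all 6 ligands were called. Bmp8b was higher in BAT by log2 5.40 ± 0.73, and on log2(FPKM + 1) its difference was 0.15 and not called. Over the 10 genes 3 were called higher and 4 lower, where 32.4% and 34.5% of all 14089 genes tested were. The median log2 difference of the 10 was -0.08, beside -0.04 over all genes.

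Bmp3, which opposes other BMPs in bone, had the highest mean of the 6 ligands in iWAT per transcript length (6.18 ± 1.74 FPKM at 22 °C, SD, n = 5), within the spread of Bmp6 (5.14 ± 1.61). At 22 °C its libraries read 41.1, 29.3, 41.7, 21.2 and 40.5 CPM in iWAT and 0.977, 0.994, 1.70, 1.45 and 0.748 CPM in BAT. The depots did not overlap, and BAT was lower by a log2 difference of -4.87 ± 0.34. After 24 h of cold, iWAT read 21.2, 14.9, 26.6, 27.7 and 35.7 CPM, which overlapped the 22 °C libraries (log2 -0.48 ± 0.22, not called, and called at -0.59 when replicate 4 at 22 °C was left out). In BAT its log2 fold changes of -0.29 ± 0.45 and -0.01 ± 0.44 were not called.

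Bmp7 had the most negative fitted log2 change of the 6 ligands in cold iWAT. The libraries read 3.92, 2.99, 2.08, 4.73 and 1.24 CPM at 22 °C, then 0.95, 0.0875, 1.96, 1.00 and 1.99 CPM at 6 h, and 0.490, 0.140, 1.66, 0.953 and 1.16 CPM at 24 h. Replicate 2 was the lowest in both cold groups, and replicates 3 and 5 of each cold group came near or above the lowest 22 °C library. The log2 fold change was -1.32 ± 0.60 at 6 h (not called) and -1.76 ± 0.61 at 24 h (called). That call was lost in 8 of the 10 fits that left out a library (log2 -2.14 to -1.49 over those fits): those without replicates 1, 2, 3 or 4 at 22 °C, or 1, 2, 4 or 5 at 24 h. In BAT Bmp7 lay between 0 and 0.374 CPM in every library and was not tested within that tissue. BAT was below iWAT at 22 °C without overlap, by a log2 difference of -3.78 ± 0.66.

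Bmp6, known for inducing hepcidin in the liver, was the highest of the 6 ligands in BAT per length in all 3 conditions (5.94 ± 0.577 FPKM at 22 °C, 5.76 ± 0.758 at 6 h and 6.19 ± 1.24 at 24 h). At 22 °C its libraries read 12.4, 12.7, 13.6, 14.2 and 23.7 CPM in iWAT and 32.1, 26.4, 24.8, 25.3 and 26.1 CPM in BAT. Replicate 5 of iWAT stood far above the rest yet below every BAT library, and the depot difference was log2 0.81 ± 0.17, called. It was not called on log2 FPKM, where the value was 0.21 or 0.25 while the median of all genes was -0.34 or -0.58. Within BAT its log2 changes of -0.01 ± 0.12 at 6 h and 0.05 ± 0.12 at 24 h were not called. In iWAT Bmp6 read 9.13, 13.1, 12.3, 7.24 and 11.5 CPM at 24 h, and its log2 fold change of -0.54 ± 0.19 was called. Without replicate 5 at 22 °C it was -0.33 and not called, and the call was also lost without any of the other 22 °C libraries or without replicate 1, 4 or 5 at 24 h (log2 -0.63 to -0.33). Of the exon bases of Bmp6, 5.74% overlap Txndc5 on the opposite strand, which fell in iWAT at 24 h as well (log2 -0.38 ± 0.08, adjusted p = 0.00367, edgeR).

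Bmp2, which promotes commitment of precursors to adipocytes, read 6.06, 4.39, 3.99, 3.77 and 2.96 CPM in iWAT and 1.79, 1.54, 1.48, 1.17 and 1.63 CPM in BAT at 22 °C. The depots did not overlap (log2 -1.47 ± 0.31, called). Within the depots its cold log2 changes lay between -0.25 and -0.05, and none was called. Bmp4 was low in both depots, with 2.53, 1.82, 1.30, 1.78 and 3.00 CPM in iWAT and 1.02, 0.226, 0.819, 1.85 and 1.77 CPM in BAT at 22 °C. Its depots overlapped, and the difference (log2 -0.87 ± 0.36, called) was not called without replicate 1 or 5 of iWAT or replicate 1, 2 or 3 of BAT, over a range of -1.11 to -0.62. In iWAT Bmp4 changed by log2 -0.77 ± 0.31 at 6 h and -0.32 ± 0.30 at 24 h, and neither was called.

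**Figure D2:**
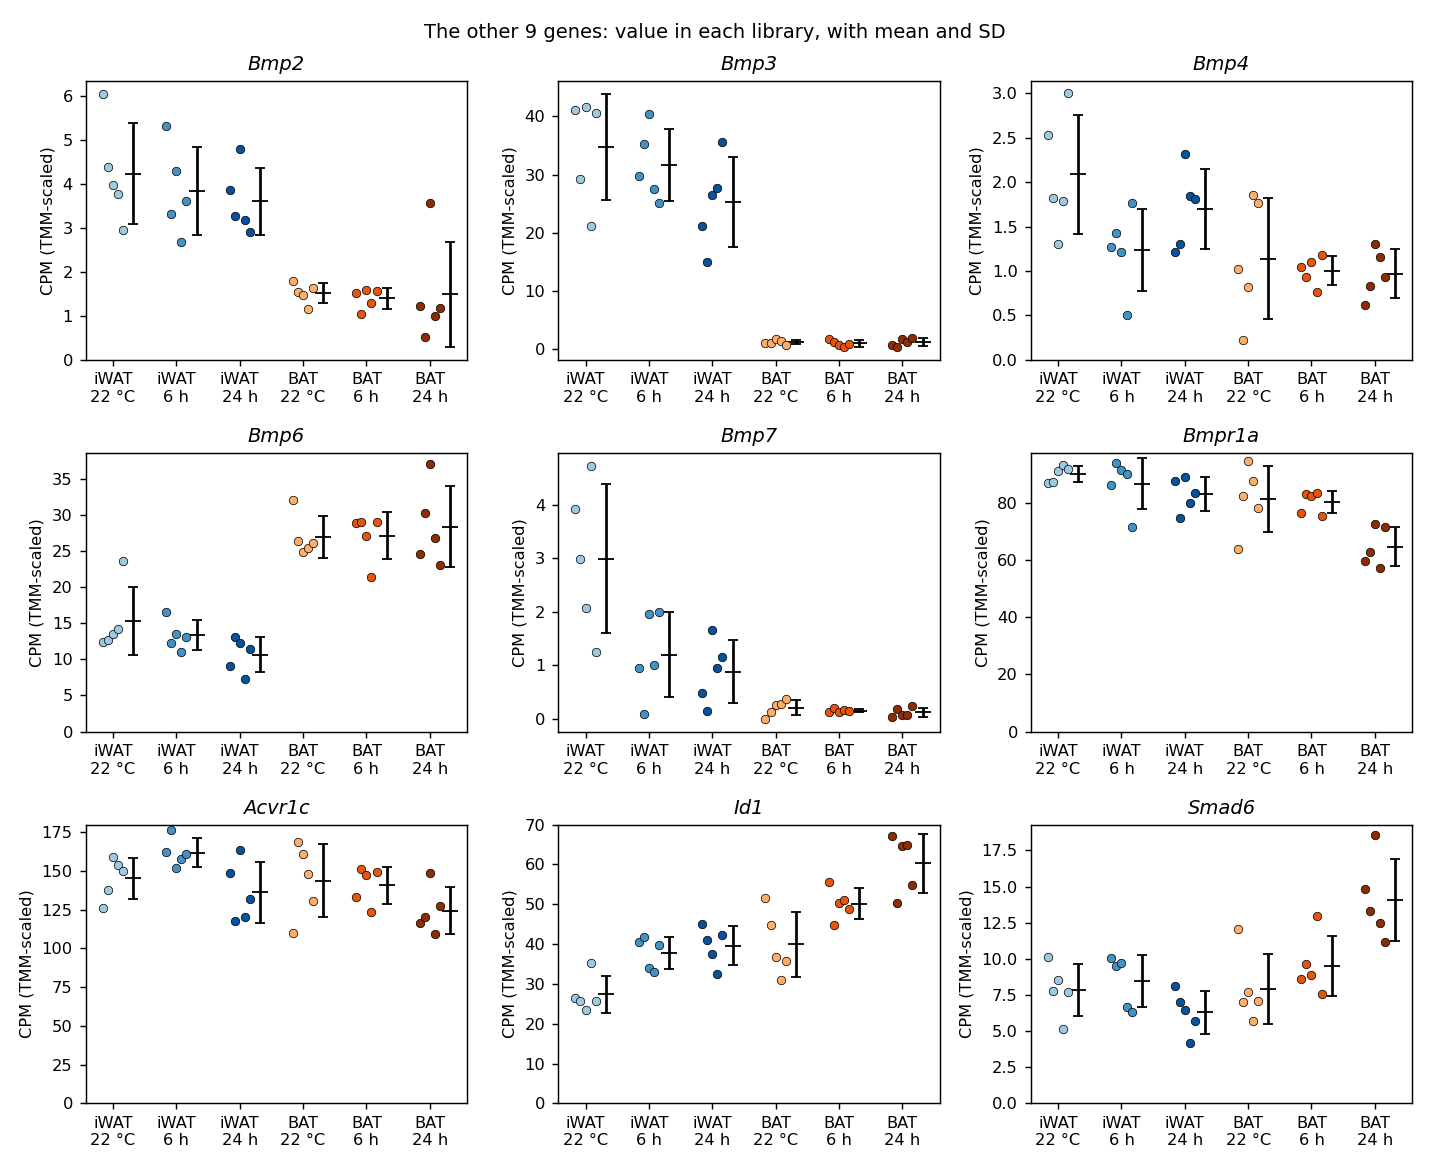
CPM (vertical axes, linear from 0 and different for each gene) of the 9 genes other than Bmp8b in each library of the 6 groups, with bars for mean ± SD (n = 5). Bmp3 lies between 14.9 and 41.7 CPM in iWAT and at or below 1.83 in BAT, Id1 shifts upward with cold in both depots, and Smad6 is highest in BAT after 24 h.

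Both receptors were abundant in both depots. Per length, Acvr1c and Bmpr1a came next after Id1, in this order, among the 10 genes in every group. Bmpr1a, a type I receptor of BMP2 and BMP4 also named ALK3, read 63.8, 82.6, 94.6, 87.7 and 78.2 CPM in BAT at 22 °C, then 76.6, 83.1, 82.6, 83.6 and 75.5 CPM at 6 h, and 59.8, 62.7, 72.6, 57.4 and 71.5 CPM at 24 h. The 24 h libraries lay below all 6 h libraries and overlapped those at 22 °C through replicate 1 of the latter. Bmpr1a was lower at 24 h by log2 -0.35 ± 0.09, a call kept when any 1 library was left out (-0.43 to -0.29). Against 6 h it was lower by log2 -0.31 ± 0.09, called, and that call was lost in 7 of 10 fits without a library (-0.35 to -0.28): those without replicates 2 to 5 at 6 h or 1, 2 or 4 at 24 h. In iWAT it did not pass edgeR's test (log2 -0.08 ± 0.08 at 6 h and -0.14 ± 0.08 at 24 h), nor between depots at 22 °C (-0.15 ± 0.09). On log2 FPKM each of these was called lower, where the median of all genes was also negative.

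Acvr1c, whose product ALK7 carries activin B and growth differentiation factor signals that favour lipid storage in adipocytes, was called by edgeR in none of the 9 comparisons. On log2 FPKM it was called lower in iWAT at 24 h and in BAT against iWAT at 22 °C. In BAT it read 110, 169, 161, 148 and 131 CPM at 22 °C and 116, 120, 148, 109 and 128 CPM at 24 h, with overlap (log2 -0.23 ± 0.11). Without replicate 1 at 22 °C that change was -0.31 and called. In iWAT it was 145 ± 13.2 CPM (SD, n = 5) at 22 °C, 162 ± 9.17 at 6 h and 136 ± 19.7 at 24 h.

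Id1, a direct BMP target that blocks basic helix-loop-helix factors, was the only gene of the 10 called higher in both cold groups of iWAT and in 24 h BAT. In iWAT it read 26.6, 25.8, 23.4, 35.3 and 25.7 CPM at 22 °C, 40.6, 41.7, 34.1, 32.9 and 39.7 CPM at 6 h, and 45.0, 41.0, 37.5, 32.5 and 42.3 CPM at 24 h. Replicate 4 at 22 °C was the single control library to reach into the cold groups. The log2 fold change was 0.44 ± 0.11 at 6 h and 0.52 ± 0.11 at 24 h, both called and kept when any 1 library was left out (0.39 to 0.56 and 0.47 to 0.64). On log2 FPKM with a pseudocount of 1 or 0.1, the 6 h change was 0.21 and not called, while the median of all genes was -0.15 or -0.25. At 6 h 1 of 9 tested members was called higher and 0 lower, beside 12.9% and 10.1% of all 13689 genes, and at 24 h 1 higher and 2 lower (Bmp6 and Bmp7), beside 12.8% and 10.1%. Those shares moved with single libraries: with 1 library left out they were 6.64% to 17.6% higher and 4.46% to 13.5% lower at 6 h, and 8.78% to 16% and 6.17% to 10.6% at 24 h, each lowest without replicate 1 at 22 °C. Between 24 h and 6 h in iWAT 0 of 9 tested members were called (1 had an unadjusted p under 0.05, and DESeq2 also called 0), and 0% of all genes were called higher and 0.00731% lower by edgeR, 1 gene in all. In that comparison 1351 genes had an unadjusted p under 0.05, and DESeq2 called 46 higher and 76 lower.

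In BAT Id1 read 51.6, 44.9, 36.7, 31.0 and 35.8 CPM at 22 °C, 55.7, 44.9, 50.2, 51.0 and 48.8 CPM at 6 h, and 67.2, 50.2, 64.6, 64.9 and 54.8 CPM at 24 h. Replicate 1 at 22 °C overlapped both cold groups. The log2 fold change was 0.31 ± 0.12 at 6 h, not called, though called by DESeq2 and without that replicate, and 0.58 ± 0.12 at 24 h, called. At 22 °C BAT exceeded iWAT by 0.55 ± 0.12, called, but on log2 FPKM the sign turned (-0.06 with either pseudocount), with a median of all genes of -0.34 or -0.58. Id1 was the most abundant of the 10 per length in every group, from 29.7 ± 5.84 FPKM in BAT at 22 °C to 44.3 ± 5.45 in BAT at 24 h.

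Smad6, the inhibitor that competes within BMP receptor and SMAD complexes, rose in BAT at 24 h. Its 5 libraries read 12.1, 7.01, 7.69, 5.71 and 7.11 CPM at 22 °C, 8.57, 9.64, 8.88, 12.9 and 7.53 CPM at 6 h, and 14.8, 13.3, 18.6, 12.5 and 11.2 CPM at 24 h. All 24 h libraries but replicate 5 lay above every 22 °C library, the highest of which was replicate 1. The log2 fold change was 0.25 ± 0.19 at 6 h, not called, and 0.81 ± 0.19 at 24 h, called with any 1 library left out (0.69 to 1.01). In iWAT Smad6 read 10.1, 7.80, 8.53, 5.13 and 7.73 CPM at 22 °C and 8.15, 7.03, 6.49, 4.15 and 5.71 CPM at 24 h, a log2 change of -0.34 ± 0.20 that was not called.

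Smad6 was the single member whose cold response the count fit called different between the depots: BAT minus iWAT at 24 h was log2 1.15 ± 0.29, and 1.03 to 1.34 with any 1 library left out. Over all 14089 genes 2.96% were called higher in BAT response and 4.85% lower at 24 h, and 3.38% and 6.03% at 6 h, where edgeR called 0 of 10 members and 0 had an unadjusted p under 0.05. At 22 °C the depots held like amounts of Smad6 in CPM (7.86 ± 1.80 in iWAT and 7.92 ± 2.44 in BAT, SD, n = 5, log2 0.01 ± 0.21). On log2 FPKM the value was -0.43 or -0.58 and was called lower in BAT, though close to the median of all genes on that scale. In BAT at 24 h, 3 of 9 tested members were called higher (Bmp8b, Id1 and Smad6) and 1 lower (Bmpr1a), beside 12.8% and 10.4% of all genes, with a median log2 of -0.01 over the 9 beside -0.01 over all genes. At 6 h 1 was called higher and 0 lower, beside 12.5% and 10.2%, and at 24 h against 6 h 1 higher and 1 lower, beside 6.6% and 6.45%. Over the 15 BAT libraries, r with Bmp8b was 0.741 for Id1, 0.685 for Smad6 and -0.588 for Bmpr1a, and over the 15 iWAT libraries 0.660, -0.489 and -0.278. In iWAT no library at 22 °C or 6 h held more than 1 Bmp8b count. Of the 7 other targets in the pathway list below, 5 were tested in each depot. In BAT 0 of 5 were called at 6 h (median log2 -0.38) and 0 at 24 h (-0.08), where 1 had an unadjusted p under 0.05 (edgeR). In iWAT 0 were called at 6 h (-0.16), and 0 higher and 1 lower at 24 h (-0.25). Of all genes in iWAT, 12.9% were called higher and 10.1% lower at 6 h, and 12.8% and 10.1% at 24 h. Sums of the 8 endothelial markers, a cell type in which Id1 and Smad6 are also made, were 620 to 800 CPM in BAT at 22 °C, 682 to 883 at 6 h and 681 to 822 at 24 h. In iWAT these sums were 360 to 666, 326 to 415 and 368 to 459 CPM. In the BAT minus iWAT response, 3 of the 8 endothelial markers were called higher and 0 lower at 6 h (median log2 0.60). At 24 h 3 were called higher and 0 lower (0.44). Their part in the result was not tested.

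**Figure D3:**
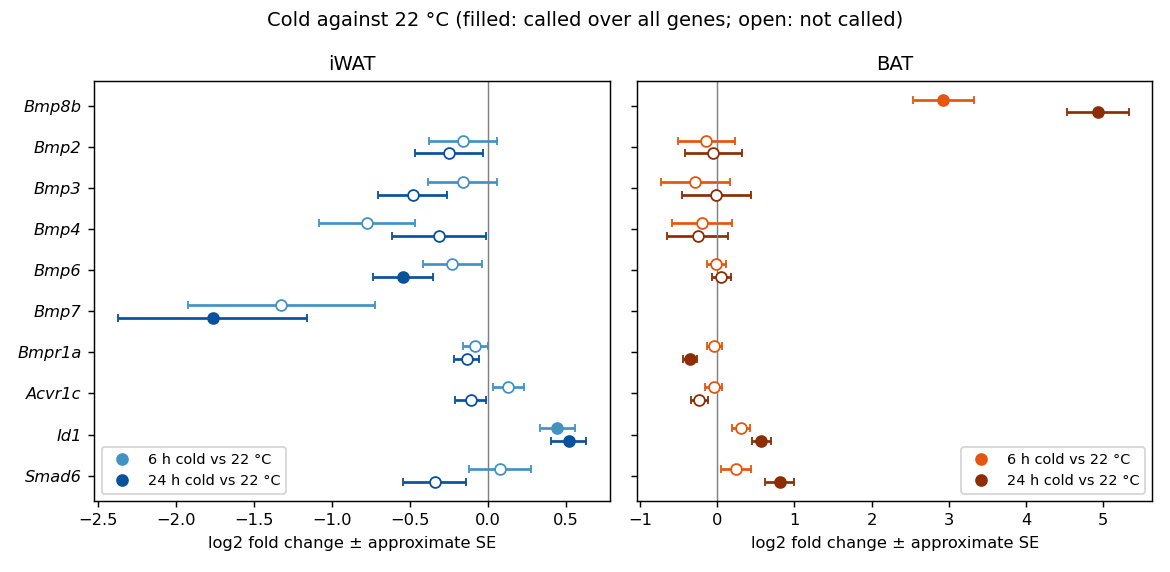
Log2 fold change of cold against 22 °C (horizontal axis, ± approximate SE, n = 5 against 5) for the members tested in iWAT at the left and BAT at the right. Filled points were called over all genes. Bmp8b in BAT stands at 2.93 and 4.93, and the other points lie between -1.76 and 0.81. The horizontal scales of the panels differ.

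Per transcript length, Bmp8b moved up the order of the 10 genes in BAT. It was the ninth at 22 °C with 0.114 ± 0.0510 FPKM (SD, n = 5), above Bmp7 (0.0448 ± 0.0307), and the sixth at 6 h with 0.889 ± 0.478 FPKM. At 24 h its 3.63 ± 0.984 FPKM stood beside Smad6 at 3.73 ± 0.737, and above Bmp4 at 0.369 ± 0.110, Bmp2 at 0.358 ± 0.288 and Bmp3 at 0.137 ± 0.0762. In iWAT it was the lowest of the 10 in every group, with 0.104 ± 0.0878 FPKM at 24 h.

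The rest of the pathway was described with 66 further genes of the same pathway (other ligands, receptors and co-receptors, antagonists, SMADs and their regulators, targets and processing proteases). This list too was chosen with earlier results of these data known, so its counts and adjusted p-values are a description. In cold iWAT their calls were all falls: 12 of 51 tested genes at 6 h and 13 of 51 at 24 h, with 0 rises. Of all genes, 10.1% were called lower at each time, and 12.9% and 12.8% were called higher at 6 h and 24 h. Their median log2 fold change was -0.36 at 6 h and -0.33 at 24 h, against -0.03 and -0.04 over all genes. Ligands, receptors, antagonists and proteases each held at least 1 called fall. Progenitor markers moved in the same direction: 5 of 10 were called lower at 6 h and 3 of 10 at 24 h, and their sum was 1684 to 3460 CPM at 22 °C, 1104 to 2119 at 6 h and 1078 to 1823 at 24 h. Endothelial markers summed to 360 to 666, 326 to 415 and 368 to 459 CPM (4 and 5 of 8 called lower), and macrophage markers to 257 to 665, 235 to 446 and 287 to 468 CPM (4 and 1 of 8). Mural markers summed to 486 to 563, 380 to 516 and 292 to 433 CPM (1 and 2 of 7 called lower). Adipocyte markers went the other way, at 19843 to 26020, 26149 to 32397 and 24024 to 29068 CPM (3 and 1 of 6 called higher). No defining marker of these cell types was at 0, and their part in these falls was not tested.

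Inhbb, the beta B subunit of activin B, fell and was the only ligand outside the 10 members called in iWAT at 24 h. It averaged 32.2 ± 8.7 CPM (SD, n = 5; 19.3 to 41.3) at 22 °C, 16.1 ± 3.4 (12.6 to 21.1) at 6 h and 11.3 ± 2.4 (8.78 to 14.5) at 24 h. The 24 h libraries lay below all those at 22 °C, and the log2 fold changes were -1.02 ± 0.20 (adjusted p = 0.00432) and -1.54 ± 0.20 (adjusted p = 0.000464, edgeR). Acvr1b, which encodes the activin type I receptor ALK4, fell too, from 30.2 ± 4.3 to 17.2 ± 4.5 and 16.3 ± 3.8 CPM (log2 -0.84 ± 0.19 and -0.91 ± 0.19, adjusted p = 0.0079 and 0.00372), without overlap at either time. Fstl1, a secreted follistatin-like protein, fell from 225 ± 59 to 107 ± 32 and 103 ± 23 CPM (log2 -1.10 ± 0.23 and -1.14 ± 0.23, adjusted p = 0.00544 and 0.00278). Bmp1, the protease that cleaves the antagonist chordin, fell from 53.2 ± 13 to 30.7 ± 7.4 and 30.2 ± 6.2 CPM (log2 -0.81 ± 0.19 and -0.83 ± 0.19, adjusted p = 0.01 and 0.00639). These 8 calls were kept when any 1 library was left out.

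Falls named at 1 time in iWAT were the chordin-cleaving protease Tll1 at 6 h (log2 -1.78 ± 0.38, adjusted p = 0.00635), and at 24 h the antagonists Chrdl1 (-0.87 ± 0.19, adjusted p = 0.00459) and Chrd (-0.73 ± 0.18, adjusted p = 0.00982), the corepressor Ski (-0.40 ± 0.11, adjusted p = 0.0161) and the homeobox target Msx1 (-1.14 ± 0.30, adjusted p = 0.0131). The BMP type I receptor Acvr1 fell at 24 h (-0.65 ± 0.14, adjusted p = 0.0046), as did the co-receptor Rgmb (-0.35 ± 0.10, adjusted p = 0.0165). These 7 calls were kept when any 1 library was left out. Of the 11 genes named at 6 h, 6 lost their call in at least 1 such fit. They were Twsg1 (log2 -0.40, range -0.49 to -0.30, lost in 8 of 10), Crim1 (-0.39, -0.45 to -0.33, lost in 8), Acvr1 (-0.48, -0.56 to -0.33, lost in 4), Acvrl1 (-0.42, -0.47 to -0.36, lost without replicate 2 at 22 °C), Rgmb (-0.30, -0.34 to -0.25, lost in 7) and Smad1 (-0.34, -0.39 to -0.25, lost in 6). At 24 h Acvrl1 (-0.35, -0.40 to -0.29) lost it in 7 of 10 and Smad1 (-0.31, -0.33 to -0.24) in 10 of 10.

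In cold BAT the calls went both ways: 5 higher and 7 lower of 48 at 6 h, and 5 higher and 6 lower of 48 at 24 h, beside 12.5% and 10.2% of all genes at 6 h and 12.8% and 10.4% at 24 h. Between the cold times edgeR and DESeq2 called 0 in either depot, and 5 of 48 in BAT and 6 of 51 in iWAT had an unadjusted p under 0.05. Of all genes in that comparison, edgeR called 6.6% higher and 6.45% lower in BAT, and 0% and 0.00731% in iWAT. An unadjusted p under 0.05 was held by 3750 of 13090 genes in BAT and 1351 of 13689 in iWAT. With so few calls over all genes, the 0 in iWAT does not set these genes apart. Smad3, the activin and TGF-beta branch SMAD, rose from 29.4 ± 5.8 CPM to 55.7 ± 14 and 58.7 ± 6.9 CPM (log2 0.91 ± 0.17 and 0.98 ± 0.17, adjusted p = 0.00095 and 0.000475, edgeR), without overlap at either time. Pcsk6, a proprotein convertase, rose from 118 ± 9.5 to 162 ± 26 and 177 ± 15 CPM (log2 0.44 ± 0.10 and 0.56 ± 0.10, adjusted p = 0.00551 and 0.000831). The co-receptor Rgma fell from 15 ± 2.4 to 8.34 ± 0.48 and 9.62 ± 2.6 CPM (log2 -0.86 ± 0.16 and -0.66 ± 0.16, adjusted p = 0.000903 and 0.00577), and Acvr1b from 13.3 ± 2.3 to 8.43 ± 1.6 and 8.00 ± 1.3 CPM (-0.68 ± 0.15 and -0.76 ± 0.15, adjusted p = 0.00328 and 0.0014). Smad2 fell at 6 h (-0.35 ± 0.08, adjusted p = 0.00646), Acvr1 fell at 24 h (-0.63 ± 0.13, adjusted p = 0.00177) and the endothelial co-receptor Eng rose at 24 h (0.50 ± 0.13, adjusted p = 0.00873). Those calls were kept when any 1 library was left out.

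Calls in BAT that were lost in at least 1 fit without a library were those of the low-level ligand Gdf5 (log2 -2.32, range -2.60 to -2.04, lost in 6 of 10), Inhbb (-1.50, -1.77 to -1.18, lost in 7), Acvr1 (-0.36, -0.43 to -0.25, lost in 7), Eng (0.42, 0.34 to 0.54, lost in 4) and the inhibitory Smad7 (0.50, 0.39 to 0.67, lost in 8) at 6 h. At 24 h they were those of Gdf5 (-2.59, -3.53 to -2.26), Gdf10 (0.73, 0.63 to 0.84, lost in 3) and Bmp1 (-0.42, -0.49 to -0.31, lost in 5). Gdf5 lost its 24 h call without replicate 4 at 22 °C (-2.32) and in no other of the 10 fits. Skeletal muscle markers were lower in some cold BAT libraries, as given above, with 1 of 9 tested called lower at 6 h and 0 at 24 h.

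The cold response of 7 of 54 other pathway genes at 6 h and 5 of 54 at 24 h was called different between the depots, where 3.38% of all genes were called higher in BAT response and 6.03% lower at 6 h, and 2.96% and 4.85% at 24 h. Smad3 differed at both times (BAT minus iWAT log2 1.15 ± 0.22 and 1.14 ± 0.22, adjusted p = 0.00154 and 0.00195, edgeR): it rose in BAT and stood at 23.7 ± 3.9, 20.2 ± 3.1 and 21.4 ± 2.2 CPM in iWAT. Pcsk6 differed by 0.99 ± 0.18 at 24 h (adjusted p = 0.00176). Fstl1 (0.95 ± 0.26, adjusted p = 0.0203), Rgma (-0.77 ± 0.22, adjusted p = 0.0235), Smad2 (-0.45 ± 0.11, adjusted p = 0.0114) and Bmpr2 (0.37 ± 0.10, adjusted p = 0.0193) differed at 6 h, though on log2(FPKM + 1) Rgma (-0.30) and Smad2 (-0.18) were not called. Leaving out 1 library of the 20 compared ended the calls of Pcsk6 (0.58, range 0.48 to 0.68, lost in 15 of 20) and Acvrl1 (0.46, 0.40 to 0.53, lost in 14) at 6 h. At 24 h it ended those of Fstl1 (0.90, 0.78 to 1.05, lost in 8), Rgma (-0.71, -0.86 to -0.58, lost in 13) and Acvrl1 (0.50, 0.44 to 0.58, lost in 9).

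**Figure D4:**
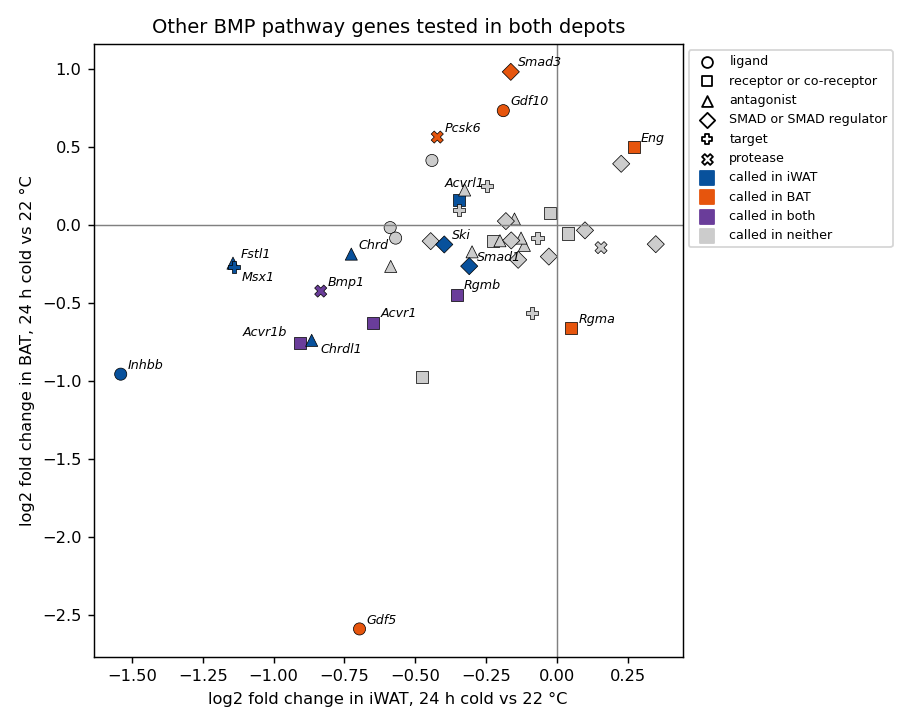
Log2 fold change after 24 h of cold in iWAT (horizontal axis) and BAT (vertical axis) for the 45 other pathway genes tested in both depots, with the shape showing the role and the colour the depot in which a gene was called. Genes called in iWAT lie left of 0, with Inhbb at -1.54, while Smad3 at 0.98 and Gdf5 at -2.59 mark the ends of the BAT scale.

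At 22 °C, 13 of 54 other pathway genes were called higher in BAT than in iWAT and 27 lower, beside 32.4% and 34.5% of all genes. Antagonists were mostly lower in BAT (11 of 15 tested, 2 higher), with Chrd at 0.832 ± 0.34 CPM against 11.5 ± 0.61 in iWAT (log2 -3.79 ± 0.27, adjusted p = 9.34e-13, edgeR), Chrdl1 at 10.4 ± 4.8 against 110 ± 20 (-3.40 ± 0.26, adjusted p = 5.93e-12) and Fstl1 at 54.6 ± 6.5 against 225 ± 59 (-2.04 ± 0.19, adjusted p = 2.05e-10). Inhbb was lower in BAT at 1.11 ± 0.55 against 32.2 ± 8.7 CPM (-4.86 ± 0.33, adjusted p = 5.74e-13). Bmp5, a ligand of the BMP6 and BMP7 subgroup, was higher at 2.80 ± 0.51 against 0.543 ± 0.13 CPM (2.36 ± 0.28, adjusted p = 3.11e-08). Eng, Furin and Skil were also higher (log2 1.38, 1.17 and 1.64). Progenitor markers summed to 544 to 944 CPM in BAT and 1684 to 3460 CPM in iWAT at 22 °C, and their part in these depot differences was not tested.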

How the data were processed

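Per the labels, poly(A) RNA was purified and libraries were made with the NEBNext Ultra II RNA kit. HISAT2, HTSeq and GRCm39 are named in the submitters' processing notes, and versions and strand setting are not given in the sources used here. The deposited counts are the authors' whole-number reads per gene, unscaled. The deposited FPKM values equal the authors' counts divided by column total and by a constant for each gene (checked over 12823 genes). That this constant is the gene length was not checked. Library totals were 25.3 to 41.0 M (M, mega), and the 60 replicate pairs had a chi-square of 14.6 to 191 per degree of freedom.

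The count fits used edgeR 4.0.16 under R 4.3.3 (filterByExpr with a minimum count of 10, TMM factors, quasi-likelihood test, adjusted p under 0.05 over all genes), in 1 fit per depot, or over all 30 libraries where depots were compared. The 9 comparisons set 6 h and 24 h against 22 °C and against each other in both depots, BAT against iWAT at 22 °C, and the depot difference in response at 6 h and 24 h. CPM use TMM factors over all 30 libraries, approximate SE is the log2 fold change over the root of F, and intervals and floors cover counting error only. Other settings tried were DESeq2 1.42.0, factors by RLE or upper quartile, all genes unfiltered, genes with 1 CPM in 5 libraries, limma 3.58.1 on log2(FPKM + 1 or 0.1), other fits and each library left out.

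The 10 members and all lists were chosen with earlier results of these data known. Beside them the text names, per comparison, up to 4 called pathway genes of each role that average 1 CPM or more in a group, by size of change, plus Bmp8a, and the 5 genes most correlated with Bmp8b per depot, predicted genes left out. Whether both depots of 1 number come from 1 mouse is not stated, and not every same-numbered pair correlated above 0.1, so the replicate number was not used as a pairing.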

Additional observations from a re-analysis of the deposited data

Results flagged for a closer look

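In 6 of the 60 sets of 5 libraries (10 genes in 6 groups) 1 library lay apart from the others, its gap over the range exceeding Dixon's value of 0.71, where chance gives about 1 set in 20. Bmp8b was 0.862 CPM in iWAT 24 h replicate 5 against 0.140 to 0.337 in the others. Bmp2 was 3.57 CPM in BAT 24 h replicate 3 against 0.509 to 1.23. Bmp6 was 23.7 CPM in iWAT 22 °C replicate 5 against 12.4 to 14.2, 32.1 CPM in BAT 22 °C replicate 1 against 24.8 to 26.4, and 21.4 CPM in BAT 6 h replicate 4 against 27.1 to 29. Id1 was 35.3 CPM in iWAT 22 °C replicate 4 against 23.4 to 26.6.

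The response to cold differed between the depots by edgeR's interaction term (adjusted p under 0.05 over all genes, BAT minus iWAT, 5 libraries per group) for these genes. At 6 h the log2 differences were 0.37 for Bmpr2, 0.46 for Acvrl1, -0.77 for Rgma, 0.95 for Fstl1, -0.45 for Smad2, 1.15 for Smad3 and 0.58 for Pcsk6. At 24 h they were 1.15 for Smad6, 0.50 for Acvrl1, -0.71 for Rgma, 0.90 for Fstl1, 1.14 for Smad3 and 0.99 for Pcsk6. Smad6 is a member, and members and lists alike were chosen with earlier results of these data known. All of these values are therefore a description.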

How the results depend on the processing

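The Bmp8b calls in BAT, with Id1, Smad6 and Bmpr1a at 24 h against 22 °C, were kept under all alternatives run. Bmp8b was smaller on log2(FPKM + 1), with changes of 0.72, 2.03 and 1.30 at 6 h, 24 h and 24 h against 6 h. At 22 °C the sign of BAT minus iWAT turned on log2 FPKM for Id1 (-0.061 and -0.0633) and Smad6 (-0.43 and -0.58), where the median of all genes was -0.34 and -0.58, against -0.04 with TMM factors. On those scales Smad6, Bmpr1a (-0.71 and -0.76) and Acvr1c (-0.59 and -0.63) were called lower in BAT. In cold iWAT both scales also called Bmpr1a lower at 6 h (-0.30 and -0.32) and at 24 h, and Acvr1c lower at 24 h. The median of all genes there was -0.15 and -0.25 at 6 h and -0.12 and -0.19 at 24 h. Smad6 at 24 h against 6 h in BAT was called with DESeq2, upper-quartile factors and FPKM, and Bmp4 at 6 h in iWAT with DESeq2 and FPKM. Bmp6 in iWAT at 24 h lost its call with RLE factors, no filter, only the groups compared and the replicate block, and Bmp7 with no filter. Upper-quartile factors shifted the median of all genes to -0.10 in both cold iWAT groups and -0.23 between depots, with 1250 higher and 2074 lower at 6 h, 1381 and 1891 at 24 h, and 3516 and 6254 between depots. On log2(FPKM + 1) these were 575 and 4324, 1035 and 3128, and 1966 and 9302.

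The number of other pathway genes called in iWAT was 30 and 28 at 6 h on log2 FPKM with pseudocounts of 1 and 0.1 (12 with TMM factors), and 20 at 24 h with 1 (13). The depot difference in response gave 12 at 6 h (7) and 9 at 24 h (5) with a pseudocount of 1. Of all genes, that setting called 2205 higher and 401 lower at 6 h, against 476 and 849 with TMM factors. At 24 h it called 1571 and 385, against 417 and 683. BAT at 24 h against 6 h gave 1 pathway gene with all 30 libraries in the fit (0), where 715 of all genes were called higher and 724 lower. With 1 library left out the counts of other pathway genes were 7 to 16 in iWAT at 6 h (7 without replicate 1 or 2 at 22 °C or replicate 4 at 6 h). In BAT at 6 h they were 6 to 12 (6 without replicate 4 at 22 °C, 7 without replicate 3 at 6 h). For the depot difference at 24 h they were 2 to 5. They were 2 or 3 without replicate 1 or 2 at 22 °C in either depot or replicate 1, 2 or 4 of iWAT at 24 h. The same held without replicate 4 or 5 of BAT at 24 h. The cause was not tested.

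Counts over all genes also moved by over 1.5 times in at least 1 direction without single libraries. In iWAT at 6 h they were 912 higher and 613 lower without replicate 1 at 22 °C, 964 and 621 without replicate 2, and 1433 and 900, 1317 and 902, and 1094 and 819 without replicates 2, 4 and 5 at 6 h (1769 and 1379 with all). In iWAT at 24 h they were 1206 and 847 or 1262 and 882 without replicate 1 or 2 at 22 °C, and 1397 and 916 without replicate 2 at 24 h (1757 and 1388). In BAT at 24 h against 6 h they were 660 and 545 without replicate 4 at 24 h (864 and 844). The depot difference in response at 6 h (476 and 849) gave 303 and 559, 325 and 546, and 667 and 1506 without iWAT replicates 1, 2 and 4 at 22 °C, and 587 and 1334 or 316 and 606 without BAT replicate 1 or 3 at 6 h. At 24 h (417 and 683) it gave 264 and 439 or 536 and 1105 without iWAT replicate 1 or 4 at 22 °C.

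The replicate block gave 12, 13, 0, 9, 12, 2, 41, 8 and 6 called pathway genes over the 9 comparisons, in the order iWAT 6 h, 24 h and between, BAT 6 h, 24 h and between, depots, and response at 6 h and 24 h. Of all genes, it called 1601 higher and 1280 lower in iWAT at 6 h, 1669 and 1290 at 24 h, and 0 between. In BAT these were 1826 and 1456, 1839 and 1603, and 1024 and 1100. Between depots they were 4823 and 4976, and for the response 747 and 1338 at 6 h and 592 and 1035 at 24 h. Deviations of same-numbered libraries had r from -0.235 to 0.252 in iWAT (1 of 15 pairs over 0.1) and from -0.423 to 0.397 in BAT (4 of 15). Between iWAT and BAT of 1 condition r was -0.482 to 0.288 (3 of 15 over 0.1), positive in all 5 pairs at 24 h (0.0772 to 0.288), and whether those pairs share a mouse is not stated. Values of 3 counts or fewer per library, as for Bmp8b in iWAT at 22 °C and 6 h, are limited by depth.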
